A study of Mus musculus with 12 samples.

Results

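RNA of 10 mouse genes that make or store the small mediators of mast cells and basophils was examined in 12 libraries of bone marrow progenitors. The genes were taken by their symbols from the table of counts, which lists 55376 genes, and all 10 were found there. All 10 also passed the filter on low counts that left 11994 genes for testing. Hdc, Tph1, Slc18a2 and Srgn serve the amines histamine and serotonin and their storage in granules, and Alox5, Alox5ap, Ltc4s, Hpgds, Ptgs1 and Ptgs2 serve the eicosanoids, lipid mediators made from arachidonic acid.

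The libraries fell into 4 groups of 3. Cells of the first pair of groups carried the NUP98-NSD1 fusion in an MSCV retroviral vector together with shNizp1#2 or shNizp1#1, 2 short hairpin RNAs against Nizp1. The third group carried NUP98-NSD1 with a control shRNA, and the fourth the empty MSCV vector with a control shRNA. NUP98-NSD1 joins a nucleoporin to a histone H3 lysine 36 methyltransferase and occurs in acute myeloid leukaemia, and Nizp1 is a zinc finger protein listed under its symbol Zkscan17. The groups shared the cell source (c-Kit+/Sca-1+/Lin- bone marrow), the selection of transduced cells with geneticin as the labels describe it, pLKO.1-puro as the shRNA backbone where the labels name one, and an RPMI medium to which SCF (100 ng/ml) and the interleukins IL-3 (20 ng/ml) and IL-6 (20 ng/ml) were added. The age, sex, strain and number of donor mice were not given in the sources used here. The series text speaks of independent experiments without saying that the replicate number marks one. Libraries of the same number deviated together from their group means in 18 of 18 pairs, so a shared number is called an experiment here, as an inference.

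Mast cells and basophils store histamine and, in mice, serotonin in granules and release them within moments of activation. Histidine decarboxylase (Hdc) makes histamine from histidine, tryptophan hydroxylase 1 (Tph1) starts serotonin synthesis, the vesicular monoamine transporter VMAT2 (Slc18a2) loads both amines into granules, and serglycin (Srgn) is the proteoglycan core that holds the granule content. Lipid mediators are made on demand: 5-lipoxygenase (Alox5) with its activating protein FLAP (Alox5ap) makes leukotriene A4, which leukotriene C4 synthase (Ltc4s) joins to glutathione. The cyclooxygenases COX-1 (Ptgs1) and COX-2 (Ptgs2) make prostaglandin H2, which haematopoietic prostaglandin D synthase (Hpgds) turns into prostaglandin D2, the main prostanoid of mast cells.

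The libraries held between 3586538 and 6842589 counts each. Levels are given as CPM, counts scaled to the total of each library, and 3 counts, the limit taken for detection, made 0.417 to 0.837 CPM. Reads carry no molecular identifiers, so this limit covers counting error only. Zkscan17 was lower with both hairpins in 3 of 3 experiments. It was at 29.0, 17.6 and 27.0 CPM with shNizp1#2, 35.0, 26.2 and 30.4 CPM with shNizp1#1 and 62.6, 49.4 and 61.8 CPM with the control shRNA in NUP98-NSD1 cells. With the replicate block described below both differences passed the test (log2 fold change -1.25 and -0.93, edgeR adjusted p = 0.00029 and 0.00198), and without it neither did (0.228 and 0.490). Without experiment 3, the adjusted p with the block was 0.0449 for shNizp1#2 and 0.0986 for shNizp1#1. Hoxa9, a known target of NUP98 fusions, averaged 30.9 ± 27.9 CPM in NUP98-NSD1 cells with the control shRNA, against 0.380 ± 0.318 CPM in empty vector cells (SD, n = 3 each). The cells had been sorted as progenitors, and the libraries held high levels of mast cell markers in every group. Kit lay between 1930 and 3100 CPM, the mast cell carboxypeptidase Cpa3 between 19300 and 30600 CPM and the IgE receptor chain Fcer1a between 3810 and 6180 CPM. Of the 8 progenitor markers, Kit among them, Cd34 was at 1140 to 2020 CPM and Ly6a (Sca-1) at 23.8 to 277 CPM. Flt3 was at 0 to 3.86 CPM, and the 8 summed to 3850 to 4810 CPM. Of the lineage markers, Cd5 had no count in any library. In bulk RNA, fewer cells of a type and less RNA per cell cannot be told apart, and this holds for every level and difference given here.

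Compared per length (CPM per kb of gene model, mean ± SD over 12 libraries), the storage genes and the first enzymes of serotonin and leukotriene synthesis stood highest and the cyclooxygenases lowest. Srgn averaged 1960 ± 341 CPM per kb and was the highest of the 10 in all 12 libraries. Tph1 averaged 942 ± 190 CPM per kb and Alox5 871 ± 138 CPM per kb, with overlapping ranges and Tph1 higher in 8 of 12 libraries, so their order was not fixed. Slc18a2 averaged 362 ± 65.0 CPM per kb and lay above Alox5ap, at 163 ± 40.1 CPM per kb, in 12 of 12 libraries, although the ranges over all libraries touched. These 5 genes stood at the 97.1st percentile of tested genes or higher by level per length, up to the 99.9th for Srgn.

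The lower 5 genes were spread over a wide range. Ltc4s averaged 61.8 ± 10.8, Hpgds 54.7 ± 9.75, Hdc 50.7 ± 29.6 and Ptgs1 31.8 ± 6.63 CPM per kb. Neighbours in this stretch overlapped: Ltc4s was above Hpgds in 9 of 12 libraries, Hpgds above Hdc in 5 of 12 and Hdc above Ptgs1 in 8 of 12. Ptgs2, the inducible cyclooxygenase, averaged 1.44 ± 1.53 CPM per kb, below Ptgs1, the constitutive one, in 12 of 12 libraries, at the 11.9th percentile of tested genes. Tph1 alone took on average 0.445% of all counts of a library and Srgn 0.343%.

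**Figure D1:**
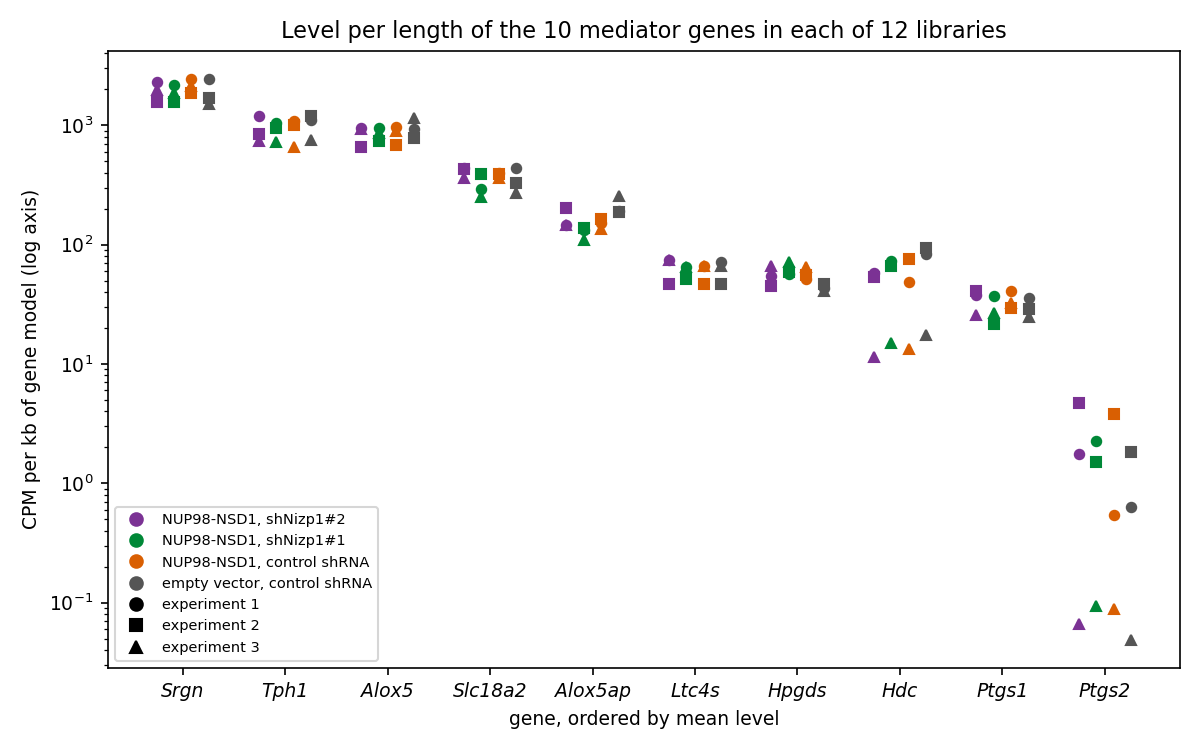
Level per length (CPM per kb of gene model, log axis) of the 10 genes, ordered by mean, with 1 point per library; colours mark the groups and shapes the experiments. Srgn lay at the top with 1960 CPM per kb on average and Ptgs2 at the bottom with 1.44 CPM per kb; the triangles of experiment 3 stand apart for Hdc and Ptgs2.

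For 7 of the 10 genes the level followed the experiment more than the group. The medians over all tested genes went the same way, and the share of tested genes that did so was not counted. Replicate number accounted for 93.7% of the variance of log2(CPM + 1) of Hdc, 91.2% of Ltc4s, 85.5% of Ptgs2, 82.7% of Tph1, 76.7% of Alox5 and 71.2% of Srgn. The median over all tested genes was 48.7%, and the group accounted for a median of 20.6%. Alox5ap and Hpgds were the reverse, with 67.8% and 58.8% of their variance between groups, and Slc18a2 was split evenly, with 35.4% by number and 36.5% by group. For Ptgs1 the shares were 47.8% by number, just under the median over tested genes, and 19.9% by group. Because libraries of 1 experiment may share a culture, differences between experiments are given with no test.

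Hdc was low in every group of experiment 3. In that experiment it was at 27.3 CPM with shNizp1#2, 35.8 CPM with shNizp1#1, 32.0 CPM with NUP98-NSD1 and control shRNA and 41.7 CPM with the empty vector. The other 8 libraries ran from 116 to 223 CPM and did not overlap these 4. The means were 34.2 CPM in experiment 3 and 165 CPM in the others, a difference of -2.22 in log2(CPM + 1).

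Ptgs2 was close to absent in experiment 3, with 8 counts over its 4 libraries. Each of these libraries had 1 to 3 counts, at or under the limit taken for detection, so no fold is given. In the other 8 libraries Ptgs2 lay between 2.41 and 20.9 CPM, and the highest were shNizp1#2 with 20.9 CPM and NUP98-NSD1 with control shRNA with 16.8 CPM, both of experiment 2.

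Tph1 showed a smaller gap in the same direction. It averaged 3430 CPM in experiment 3 (range 3130 to 3600) and 5000 CPM in the others (range 4030 to 5690), a difference of -0.54 in log2(CPM + 1). With Hdc and Ptgs2 it made 3 of 10 genes whose 4 libraries of experiment 3 lay below the other 8, a place held by 9.2% of tested genes. A difference of -1 or less on top of that was found for 2 of 10, against 4.98% of tested genes.

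Sequences before the start sites of these 3 genes are shown because they shared the low level in experiment 3. They are RefSeq windows of build GRCm38.p6 that run from 250 bases before to 50 bases after an annotated start site, in the direction of the gene. Capitals mark matches to the words searched, on either strand. The words were TTGCGCAA for C/EBP, CACGTG for an E-box, TGACG for the half-site of a cAMP response element, GGGCGG for a GC box, TATAAA for a TATA box, and for GATA factors AGATAA or AGATAG or TGATAA or TGATAG.
Ptgs2 (chr1:150099781-150100080, plus strand): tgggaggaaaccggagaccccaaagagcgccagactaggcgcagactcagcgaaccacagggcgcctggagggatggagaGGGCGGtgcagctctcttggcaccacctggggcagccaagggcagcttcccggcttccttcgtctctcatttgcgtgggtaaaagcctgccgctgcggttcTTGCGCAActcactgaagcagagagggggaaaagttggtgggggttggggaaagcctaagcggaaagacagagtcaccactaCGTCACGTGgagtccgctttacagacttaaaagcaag
Hdc (chr2:126618629-126618928, minus strand): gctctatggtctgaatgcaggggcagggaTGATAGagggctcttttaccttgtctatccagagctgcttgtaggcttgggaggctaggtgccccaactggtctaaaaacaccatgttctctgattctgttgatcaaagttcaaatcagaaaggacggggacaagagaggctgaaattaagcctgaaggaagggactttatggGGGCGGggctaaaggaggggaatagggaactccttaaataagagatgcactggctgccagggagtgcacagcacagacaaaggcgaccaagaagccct
Tph1, outer start (chr7:46672488-46672787, minus strand): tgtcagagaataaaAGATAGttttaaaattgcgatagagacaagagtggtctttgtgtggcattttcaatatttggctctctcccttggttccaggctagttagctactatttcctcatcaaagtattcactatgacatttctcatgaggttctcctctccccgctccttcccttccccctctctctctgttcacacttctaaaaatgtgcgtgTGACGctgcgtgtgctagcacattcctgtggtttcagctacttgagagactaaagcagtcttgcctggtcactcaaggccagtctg
Tph1, inner start (chr7:46667328-46667627, minus strand): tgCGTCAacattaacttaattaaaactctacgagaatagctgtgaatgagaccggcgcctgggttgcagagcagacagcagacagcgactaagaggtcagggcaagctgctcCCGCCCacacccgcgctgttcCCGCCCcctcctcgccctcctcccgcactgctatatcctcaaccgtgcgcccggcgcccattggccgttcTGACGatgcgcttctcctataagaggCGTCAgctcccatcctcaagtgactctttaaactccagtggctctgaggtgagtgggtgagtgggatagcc

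The Ptgs2 window held the C/EBP word 69 bases before the start site, at -69, a word present in 0.183% of 32851 windows of the same length. It also held a GC box and, 14 bases after the start, a cAMP half-site that overlaps an E-box. The E-box word was present in 7.15% of windows, the half-site in 20.8% and the GC box in 35.7%. The Hdc window held a GATA word at -221, present in 29.8% of windows, and a GC box at -48. The outer Tph1 window held a GATA word and 1 half-site, and the inner one 3 half-sites and 2 GC boxes. No single word searched was found in all 4 windows. The GC box was in a window of each of the 3 genes, though not in the outer Tph1 window. TATAAA, present in 13.6% of windows, was in none of these 4. A match describes the letters and is no evidence of binding.

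The other experiments each had their own pattern. Srgn in experiment 1 lay above the other 8 libraries, at 4110 CPM on average against 3110 CPM, a difference of 0.41 in log2(CPM + 1). It was the 1 gene of 10 in that place, which 2.28% of tested genes held. Alox5 and Ltc4s, the first and the last enzyme of leukotriene C4 synthesis, were lowest in experiment 2. Alox5 averaged 2010 CPM there (range 1840 to 2210) and 2680 CPM in the others (range 2420 to 3210). Ltc4s averaged 31.3 CPM there (range 30.3 to 33.8) and 44.8 CPM in the others (range 42.3 to 48.7). These were 2 of 10 genes below all other libraries in experiment 2, against 4.91% of tested genes. Alox5ap, Hpgds, Slc18a2 and Ptgs1 overlapped between experiments.

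Markers of other cell types moved with the experiments too. The summed level of 8 neutrophil markers was 4.13 to 14.2 CPM in experiment 3 and 234 to 1990 CPM in the others, and its markers Camp and Ltf had no count in experiment 3. The sum of 8 macrophage and monocyte markers was 93.2 to 1140 CPM in experiment 3, against 840 to 1570 CPM in experiment 1 and 2060 to 3690 CPM in experiment 2. The sum of 6 basophil markers was 321 to 514 CPM in experiment 3 and 713 to 1110 CPM in the others. The sum of 10 mast cell markers was 39600 to 46400 CPM in experiment 3 and 47500 to 64100 CPM in the others. These markers did not move alike. Tpsb2 was at 262 to 1060 CPM in experiment 3 and 1760 to 3600 CPM in the others, and Mitf at 94 to 120 and 127 to 151 CPM. Fcer1a was at 4570 to 6180 CPM in experiment 3 and 3810 to 5720 CPM in the others, and Mcpt4 at 777 to 1970 and 493 to 1180 CPM. The part of these cell types in the low Hdc, Tph1 and Ptgs2 of experiment 3 was not tested.

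**Figure D2:**
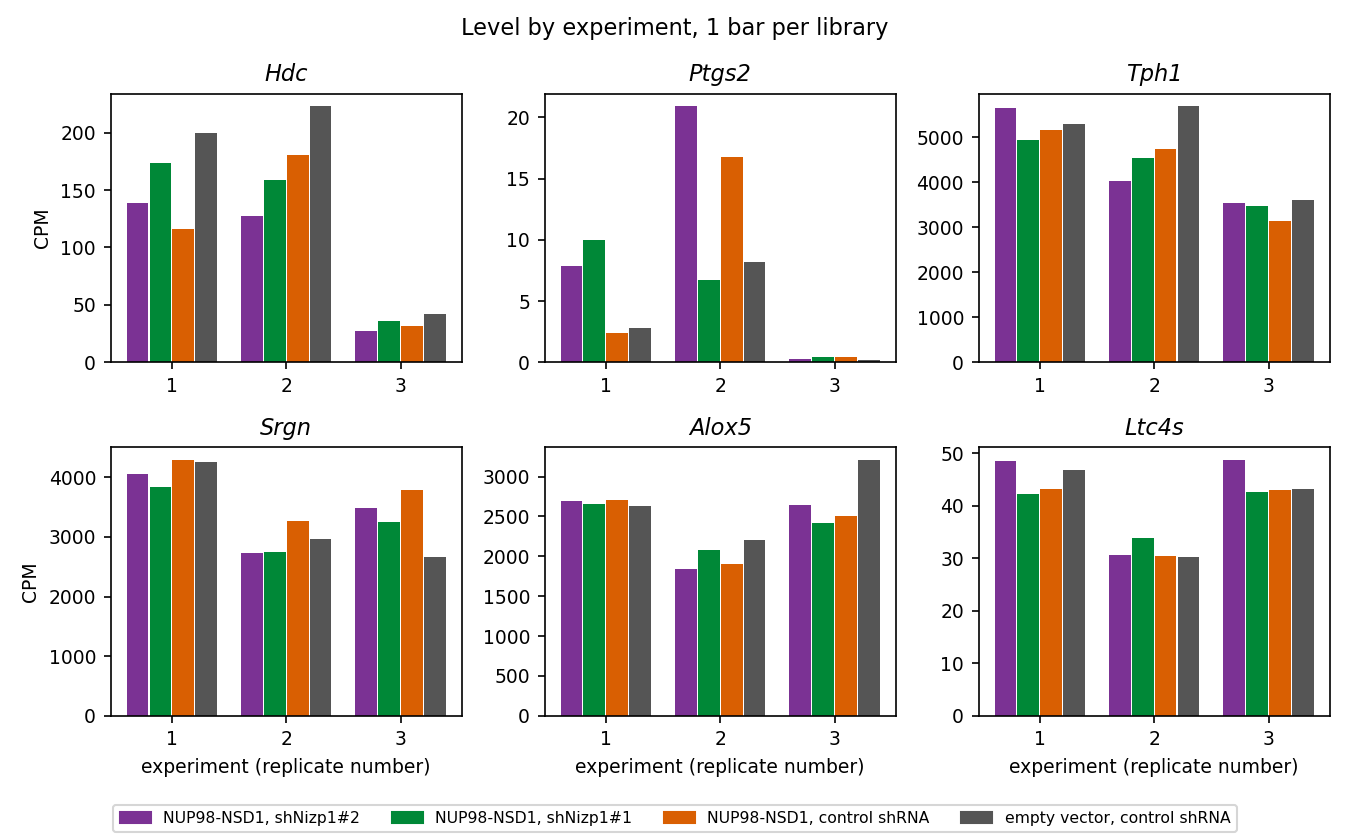
Level (CPM, linear axes from 0) of 6 genes with 1 bar per library, grouped by experiment and coloured by group. Hdc and Ptgs2 are low in all 4 bars of experiment 3, with means of 34.2 and 0.330 CPM; Tph1 is lower there; Srgn is highest in experiment 1 and Alox5 and Ltc4s lowest in experiment 2.

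The first comparison asked what NUP98-NSD1 changes in these cells, with control shRNA on both sides. None of the 10 genes passed an adjusted p of 0.05 by edgeR's quasi-likelihood test with Benjamini-Hochberg adjustment over all tested genes, either without or with the replicate number as a block. Without the block 0.00834% of tested genes passed (1 gene, Nsd1), and with it 0.275%. Nsd1 is itself part of the transduced fusion, and counts per gene do not separate the construct from the cells' own gene. At an unadjusted p of 0.05, 2 of the 10 genes passed without the block, against 2.67% of tested genes, and 3 of 10 with it, against 11%. DESeq2 and limma-voom called none in either design. The sizes and intervals below come from the fit with the block.

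Among the amine genes, Hdc was lower in NUP98-NSD1 cells in 3 of 3 experiments. It was at 116, 181 and 32.0 CPM in NUP98-NSD1 cells of experiments 1, 2 and 3, against 200, 223 and 41.7 CPM in empty vector cells. Both libraries of experiment 3 were low, and the groups overlapped. The log2 fold change was -0.48 (SE 0.13, 95% interval -0.76 to -0.20, edgeR adjusted p = 0.207), and without experiment 2 it was -0.62 with an adjusted p of 0.0463. Without the NUP98-NSD1 library of experiment 1 it was -0.29, with an adjusted p of 0.438. Srgn was higher in 3 of 3 experiments by a log2 fold change of 0.21 (interval -0.01 to 0.43), Tph1 lower in 3 of 3 by -0.17 (interval -0.39 to 0.05), and Slc18a2 had 0.17 (interval -0.12 to 0.45).

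Among the eicosanoid genes, Alox5ap and Hpgds separated the groups in opposite directions. Alox5ap, the partner of 5-lipoxygenase, was at 203, 221 and 181 CPM in NUP98-NSD1 cells, against 256, 250 and 346 CPM in empty vector cells. All 3 NUP98-NSD1 libraries lay below all 3 empty vector libraries, a place held by 3.74% of tested genes. The log2 fold change was -0.50 (SE 0.16, interval -0.85 to -0.16, edgeR adjusted p = 0.303). The empty vector library of experiment 3, with 346 CPM, was the farthest from the rest, and without that library the log2 fold change was -0.25, with an adjusted p of 0.850. Without the empty vector library of experiment 2 it was -0.69, with an edgeR adjusted p of 0.0354.

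Hpgds was at 178, 192 and 228 CPM in NUP98-NSD1 cells, against 151, 161 and 142 CPM in empty vector cells. All 3 NUP98-NSD1 libraries lay above, as 3.68% of tested genes did. The log2 fold change was 0.38 (SE 0.12, interval 0.13 to 0.63, edgeR adjusted p = 0.272), and 0.23 without the empty vector library of experiment 3 (adjusted p = 0.858). Alox5, the partner of Alox5ap, had a log2 fold change of -0.18 (interval -0.38 to 0.03) and Ltc4s of -0.04 (interval -0.29 to 0.20). Ptgs1 had 0.21 (interval -0.13 to 0.55), higher in 3 of 3 experiments. For Ptgs2 it was 0.71 with a wide interval of -0.47 to 1.89. In all, 6 of 10 genes had the same direction in 3 of 3 experiments, against 32.2% of tested genes. With the block and no filter on low counts, Hdc, Alox5ap and Hpgds had adjusted p of 0.00503, 0.000673 and 0.0418 (edgeR), in a fit that called 451 genes in place of 33.

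The mast cell sum was 58800, 54200 and 42900 CPM in NUP98-NSD1 cells of experiments 1, 2 and 3, against 64100, 59000 and 46400 CPM in empty vector cells, lower in 3 of 3 experiments. Of its 10 markers, 4 were lower and 1 higher in 3 of 3. The basophil sum was also lower in 3 of 3, with 2 of 6 markers lower and 1 higher throughout. So was the megakaryocyte and platelet sum, with 3 of 6 lower and 0 higher. The neutrophil sum was higher in 3 of 3, at 6.48 to 1990 CPM in NUP98-NSD1 cells and 4.13 to 1880 CPM in empty vector cells. Of its 8 markers, 1 was higher and 0 lower in 3 of 3. The progenitor sum was 4290, 4010 and 4120 CPM, against 4070, 3960 and 3850 CPM, higher in 3 of 3. Of its 8 markers, 4 were higher and 1 lower in 3 of 3. The macrophage sum was 242 to 2810 CPM in NUP98-NSD1 cells and 93.2 to 2060 CPM in empty vector cells. The ranges of each of these sums overlapped between the groups, and their part in the lower Alox5ap and Hdc and the higher Hpgds was not tested.

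**Figure D3:**
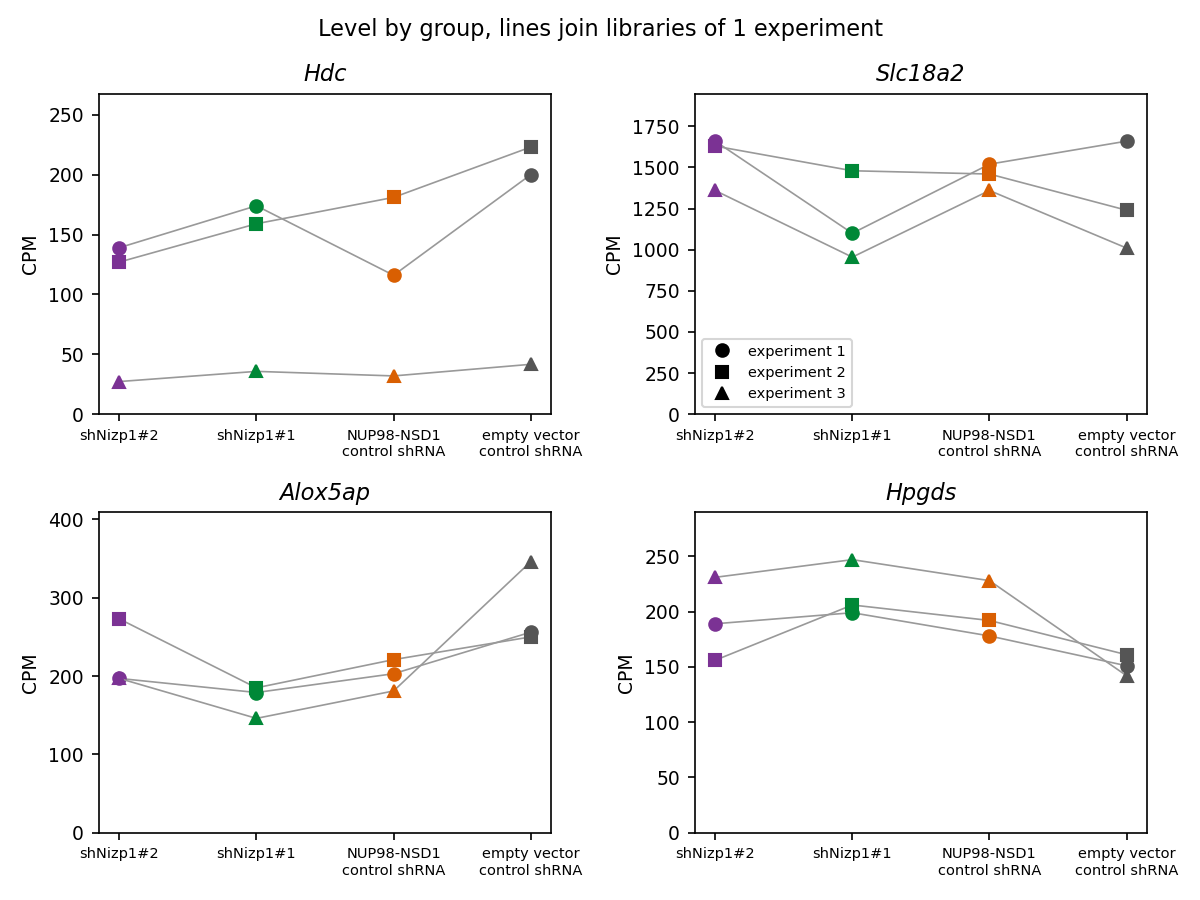
Level (CPM, linear axes from 0) of 4 genes by group, with lines joining libraries of 1 experiment. Alox5ap of the NUP98-NSD1 cells with control shRNA (181 to 221 CPM) lies below the empty vector (250 to 346 CPM) and Hpgds (178 to 228 CPM) above it (142 to 161 CPM); Hdc of experiment 3 lies at 41.7 CPM or lower in every group.

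Nizp1 was then knocked down in NUP98-NSD1 cells. The comparisons of either hairpin with the control shRNA share the control libraries, so their values are given side by side and not set against each other. No member passed the test in either, with edgeR, DESeq2 or limma-voom, with or without the block. At an unadjusted p of 0.05 by edgeR, 0 of 10 passed without the block in both, against 4% of tested genes for shNizp1#1 and 2.38% for shNizp1#2. With the block 1 of 10 passed for shNizp1#1, against 12.3% of tested genes, and 0 of 10 for shNizp1#2, against 11.1%. For shNizp1#1, no tested gene passed without the block (0%), and 480 genes had an unadjusted p under 0.05, against 1.63% of genes past the adjusted threshold with the block. For shNizp1#2 the shares were 0.00834% without the block and 0.217% with it.

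With shNizp1#1, Slc18a2 was at 1100, 1480 and 955 CPM, against 1520, 1460 and 1360 CPM with the control shRNA. In experiment 2 it was at its control's level, and in experiments 1 and 3 it was lower. The log2 fold change was -0.31 (SE 0.13, interval -0.59 to -0.02, edgeR adjusted p = 0.353). It was -0.17 without the shNizp1#1 library of experiment 1 (adjusted p = 0.732) and -0.49 without that of experiment 2 (adjusted p = 0.112). Srgn (-0.21, interval -0.43 to 0.01), Alox5ap (-0.25, interval -0.60 to 0.10) and Ptgs1 (-0.28, interval -0.62 to 0.07) were lower in 3 of 3 experiments, and Hpgds was higher in 3 of 3 (0.13, interval -0.12 to 0.38). The 4 of 10 genes with 1 direction throughout compare with 35.3% of tested genes. The mast cell sum was 50500, 51100 and 39600 CPM with shNizp1#1, against 58800, 54200 and 42900 CPM with the control shRNA, lower in 3 of 3 experiments. Of its 10 markers, 3 were lower and 2 higher in 3 of 3. The basophil sum was lower in 3 of 3 too, with 1 of its 6 markers lower and 0 higher in 3 of 3. So was the eosinophil sum, with 2 of 6 lower and 0 higher. The part of these cell types in the lower members was not tested.

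With shNizp1#2, the same direction in 3 of 3 experiments was found for 3 of 10 genes, against 39.1% of tested genes. Slc18a2 (0.09, interval -0.19 to 0.38) and Ltc4s (0.12, interval -0.11 to 0.36) were higher and Srgn lower (-0.15, interval -0.37 to 0.07). Apart from Ptgs2 (0.63, interval -0.43 to 1.68), no member's interval in the fit with the block had an end larger in size than 0.47 log2 units. These intervals were taken gene by gene and do not bound the members jointly. Without the block, Hdc had a log2 fold change of -0.17 with an SE of 0.87, which leaves room for a larger difference. With 1 library left out, with or without the block, the log2 fold change of Hdc ran from -0.61 to 0.40. The mast cell sum was 53800, 47500 and 40000 CPM with shNizp1#2, lower than with the control shRNA in 3 of 3 experiments, and of its markers 5 were lower and 5 higher in 3 of 3. The progenitor sum was 4810, 4150 and 4670 CPM with shNizp1#2, against 4290, 4010 and 4120 CPM with the control shRNA. The lineage sum was 29.7, 153 and 5.28 CPM, against 29.3, 109 and 1.96 CPM. Both sums were higher in 3 of 3, but of 8 progenitor markers 1 was higher and 1 lower throughout. Of 6 lineage markers, 1 was higher and 0 lower in 3 of 3. The part of these cells in the members' values was not tested.

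Between the hairpins, Slc18a2 and Alox5ap were higher and Hdc lower with shNizp1#2 in 3 of 3 experiments, but no member passed the test with edgeR, DESeq2 or limma-voom. At an unadjusted p of 0.05 by edgeR, 0 of 10 passed without the block, against 5.08% of tested genes, and 3 of 10 with it, against 14.8%. At the adjusted threshold 0.00834% of tested genes passed without the block and 2.37% with it. Slc18a2 was at 1660, 1630 and 1360 CPM with shNizp1#2, against 1100, 1480 and 955 CPM with shNizp1#1, a log2 fold change of 0.40 (SE 0.13, interval 0.12 to 0.68, edgeR adjusted p = 0.148). Without the shNizp1#1 library of experiment 2 it was 0.58, with an adjusted p of 0.0335. Alox5ap was at 197, 273 and 197 CPM with shNizp1#2, against 179, 185 and 146 CPM with shNizp1#1. All 3 libraries lay above, as 4.87% of tested genes did, and the log2 fold change was 0.38 (SE 0.16, interval 0.03 to 0.72, edgeR adjusted p = 0.284). Without the shNizp1#2 library of experiment 2 it was 0.22, with an adjusted p of 0.748. With the block and no filter on low counts, the adjusted p was 0.00202 for Slc18a2 and 0.0276 for Alox5ap, and 626 genes were called in place of 284.

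Hdc was lower with shNizp1#2 in 3 of 3 experiments, at 139, 127 and 27.3 CPM, against 174, 159 and 35.8 CPM with shNizp1#1. The log2 fold change was -0.34 (SE 0.13, interval -0.62 to -0.07, edgeR adjusted p = 0.208). The other members had intervals that held 0. Across all members 4 of 10 had 1 direction in every experiment, and 42.8% of tested genes did. Zkscan17 itself differed between the hairpins by -0.32 (interval -0.59 to -0.05), with an edgeR adjusted p of 0.230.

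Marker sums differed between the hairpins as well. The megakaryocyte and platelet sum was 2330, 2180 and 2130 CPM with shNizp1#2, against 1860, 2040 and 1530 CPM with shNizp1#1, without overlap, and 3 of its 6 markers were higher in 3 of 3 experiments. The neutrophil sum was 510, 1610 and 14.2 CPM with shNizp1#2, against 234, 984 and 9.86 CPM with shNizp1#1, and 1 of its 8 markers was higher in 3 of 3. The eosinophil sum was higher in 3 of 3 as well, though 0 of its 6 markers were, and the mast cell sum in 2 of 3. Their part in the higher Slc18a2 and Alox5ap, the lower Hdc and the pathway genes called between the hairpins was not tested.

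**Figure D4:**
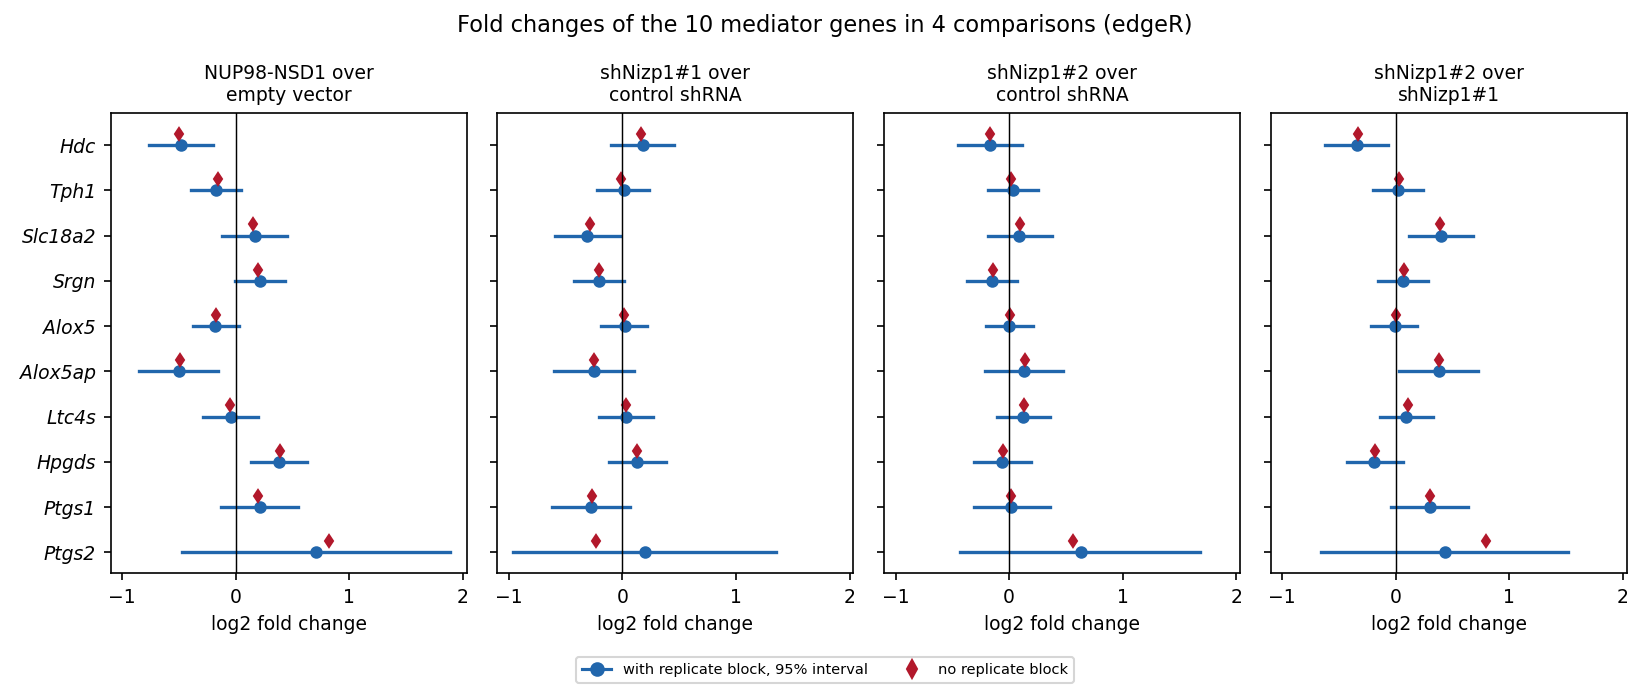
Log2 fold change of the 10 genes in 4 comparisons; circles with 95% intervals come from the fit with the replicate block and diamonds from the fit without it. Hdc and Alox5ap lie left of 0 and Hpgds right of 0 in the first panel, Slc18a2 left of 0 in the second, and Slc18a2 and Alox5ap right of 0 and Hdc left of 0 in the last; no adjusted p was under 0.05.

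Of 109 further genes of these pathways, in 4 lists that hold no member, 79 could be tested, and edgeR called none without the block in any comparison, with 2 to 7 at an unadjusted p under 0.05. DESeq2 without the block called Mboat7 in both comparisons with shNizp1#1 and Ptger3 between the hairpins, and limma-voom none. With the block edgeR called none for NUP98-NSD1 over empty vector (9 at an unadjusted p under 0.05) or for shNizp1#2 over the control shRNA (14), where limma-voom also called none and DESeq2 called 0 and 2. The histamine and serotonin list had 18 tested genes of 26, the leukotriene list 14 of 24, the prostaglandin list 17 of 27 and the list for serglycin side chains and granule release 30 of 32. For NUP98-NSD1 over empty vector their median log2 fold changes were -0.10, 0.02, -0.03 and -0.11 in that order, with 0.00 over all tested genes and 0.06 over the members. For shNizp1#1 over the control shRNA they were 0.07, 0.04, -0.09 and 0.02. For shNizp1#2 over the control shRNA they were 0.11, 0.13, 0.08 and 0.05, and for shNizp1#2 over shNizp1#1 they were -0.01, 0.23, 0.05 and 0.08.

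For shNizp1#1 over the control shRNA, 2 of the 79 tested genes fell with the block and none rose, against 1.12% of all tested genes that fell. Snap23, a SNARE protein of granule release, was at 173, 167 and 129 CPM with shNizp1#1, against 228, 209 and 173 CPM with the control shRNA (log2 fold change -0.38, SE 0.08, edgeR adjusted p = 0.0301). Mboat7, an enzyme that puts arachidonic acid into phosphatidylinositol, was at 156, 125 and 155 CPM with shNizp1#1, against 197, 202 and 195 CPM with the control shRNA (-0.45, SE 0.10, edgeR adjusted p = 0.0363). Both calls were lost when any 1 library of either group was left out (edgeR adjusted p from 0.0781 to 0.206). With DESeq2 and limma-voom both were called in the fit with the block.

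For shNizp1#2 over shNizp1#1, 6 of the 79 tested genes were higher with the block and none lower. In that fit 1.78% of all tested genes were higher, 214 of the 284 called. The 6 were 1 of 14 tested genes of the leukotriene list, 4 of 17 of the prostaglandin list and 1 of 30 of the granule list. This comparison shares the shNizp1#1 libraries with the comparison above, so the calls of Snap23 and Mboat7 in both are not independent. Snap23 was at 254, 246 and 194 CPM with shNizp1#2, against 173, 167 and 129 CPM with shNizp1#1 (0.57, SE 0.08, edgeR adjusted p = 0.00298), and stayed called in 6 of 6 fits that left out 1 library. Ptger3, a prostaglandin E2 receptor, was at 132, 132 and 122 CPM with shNizp1#2, against 73.3, 82.9 and 78.3 CPM with shNizp1#1 (0.72, SE 0.12, edgeR adjusted p = 0.00644), and stayed called in 3 of 6. Its libraries did not overlap.

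Mboat7 was at 220, 188 and 221 CPM with shNizp1#2, against 156, 125 and 155 CPM with shNizp1#1 (0.52, SE 0.10, edgeR adjusted p = 0.0121), called in 3 of 6. Pla2g4a, the cytosolic phospholipase that frees arachidonic acid, had 0.36 (SE 0.08, edgeR adjusted p = 0.0290), the prostacyclin receptor Ptgir 0.48 (SE 0.11, edgeR adjusted p = 0.0372) and Acsl4, which activates arachidonic acid, 0.40 (SE 0.10, edgeR adjusted p = 0.0457). DESeq2 with the block called 5 of the 6, and Ptgir had an adjusted p of 0.0544. The last 3 calls were lost whichever library was left out (adjusted p from 0.0640 to 0.313). Without the libraries of experiment 3 the adjusted p of these 6 genes ran from 0.0823 to 0.288. For shNizp1#2 over the control shRNA with the block, their log2 fold changes were 0.19 (Snap23), 0.28 (Ptger3), 0.08 (Mboat7), 0.18 (Pla2g4a), 0.58 (Ptgir) and 0.13 (Acsl4). There edgeR called none of them and DESeq2 called Ptgir.

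The levels of single steps in these pathways, chosen after their values were seen, were uneven. Ddc, which decarboxylates the product of Tph1 to serotonin, averaged 99.3 CPM per kb, and Tph2, the neuronal tryptophan hydroxylase, had no count. Ddc was uneven in experiment 3: it was at 56.9 CPM in NUP98-NSD1 cells with control shRNA, against 294 CPM in empty vector cells. Of the enzymes that break down amines, Maob averaged 307 CPM per kb, Hnmt, which methylates histamine, had 19 counts in 12 libraries and Aoc1 none. Lta4h, which makes leukotriene B4, averaged 62.4 CPM per kb, close to the 61.8 of Ltc4s. Tbxas1, the thromboxane synthase, averaged 87.9 CPM per kb, while Ptgds, the other prostaglandin D synthase, had 8 counts in all and Hpgds 12255. Ndst2, which sulphates the heparin chains of mast cell serglycin, averaged 165 CPM per kb.

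**Figure D5:**
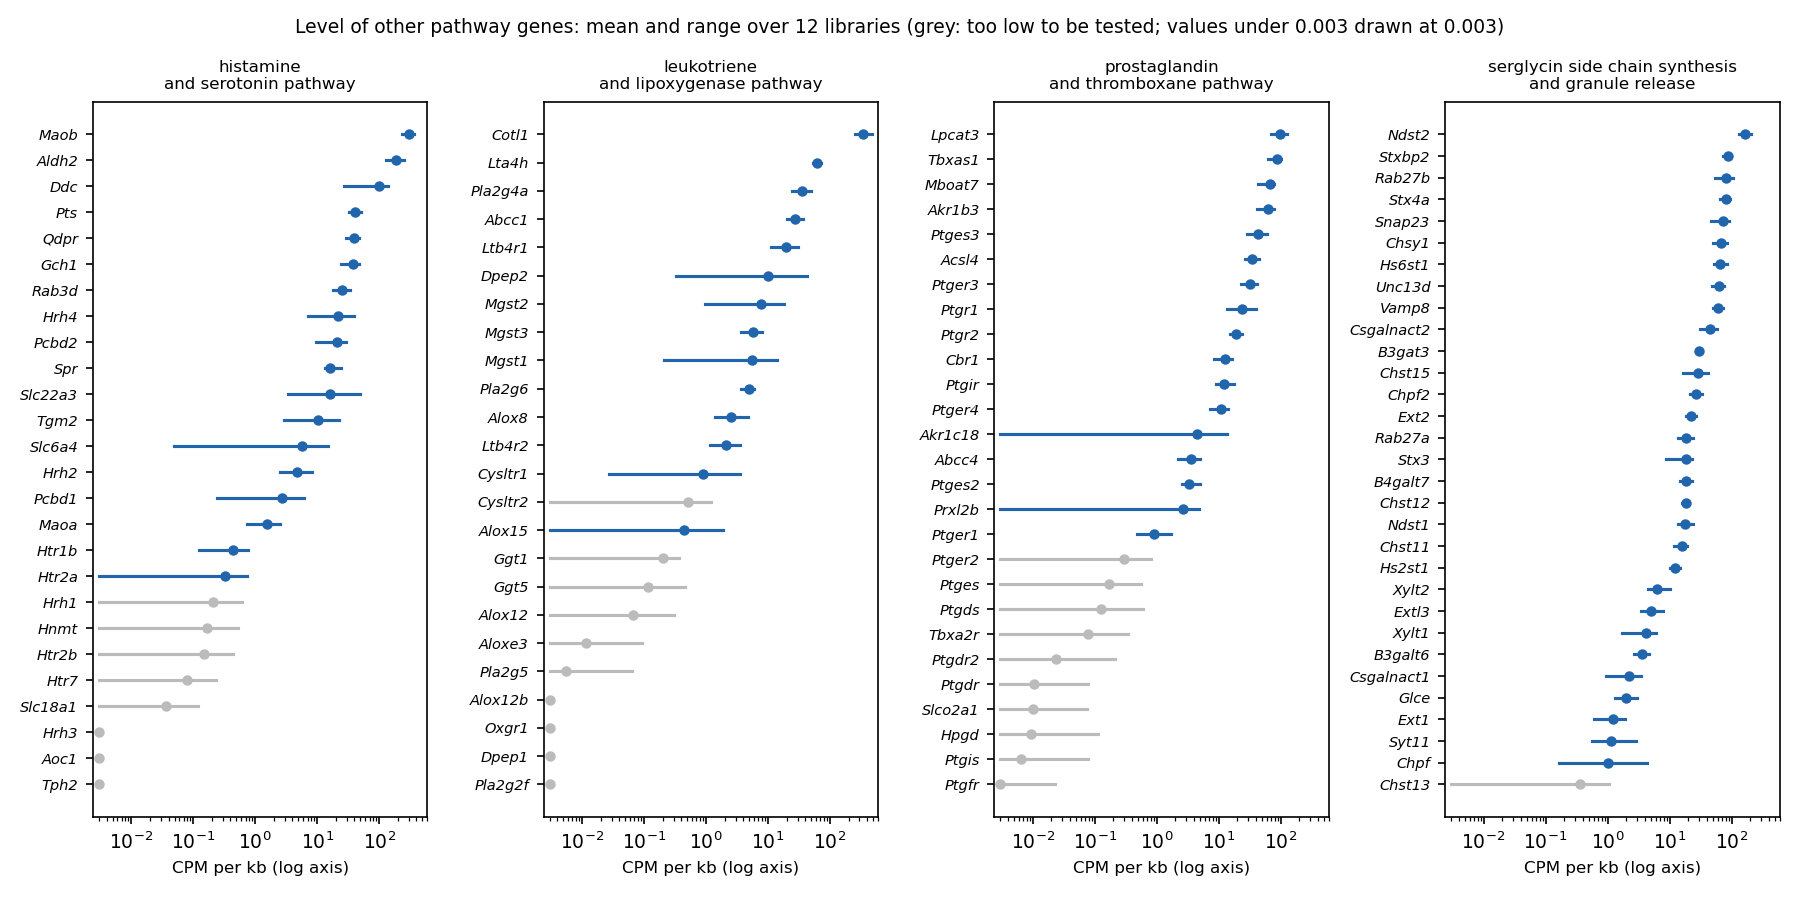
Level per length (CPM per kb, log axis) of the genes of 4 pathway lists, as the mean (point) and range (line) over 12 libraries; grey genes were too low to be tested. Maob (307 CPM per kb) and Cotl1 (343 CPM per kb) top their lists, and several receptors and Ptgds lie near the lower end.

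The genes whose level followed each member most closely were ranked by Pearson r of log2(CPM + 1) over the 12 libraries, as a description. For Hdc they were Csf1 (r = 0.970), a macrophage growth factor, and Nr4a1 (r = 0.963), an activation-induced nuclear receptor. Csf1 was at 17.0 to 35.2 CPM in experiment 3 and 129 to 269 CPM in the others, so this likeness rests on the gap between experiments. For Ptgs2 they were Gpr84 (r = 0.984) and Mrgprx2 (r = 0.983), and Gpr84 had no count in experiment 3. After the mean of each replicate number was taken off, the genes closest to Ptgs2 were the chemokines Cxcl2 (r = 0.965) and Cxcl3 (r = 0.953). In experiment 3 Cxcl2 was at 0 to 0.44 CPM and Cxcl3 had no count, so these r rest mainly on the other libraries. For 2 of 10 members the first gene on levels was among the 2 closest genes after the number means were taken off.

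For Alox5 the closest genes were Csk and Inpp5b on both scales (r between 0.944 and 0.958). For Srgn they were Ufm1 and Rab11a (r = 0.977 and 0.946), for Tph1 Syvn1 and Msn (r = 0.941 and 0.936) and for Slc18a2 Itch and Sbds (r = 0.947 and 0.946). For Ltc4s they were Prkar2b and Chsy1 (r = 0.966 and 0.959), for Alox5ap Pdzk1ip1 and Plekha1 (r = 0.914 and 0.900), for Hpgds Ankrd28 and Anks1 (r = 0.931 and 0.925) and for Ptgs1 Ifrd1 and Klf9 (r = 0.899 and 0.852). Among the members themselves, Alox5ap and Hpgds ran opposite ways (r = -0.91, and -0.97 after the number means were taken off). Hdc followed Tph1 (r = 0.90, then 0.53) and Ptgs2 (r = 0.84, then -0.14) mainly across experiments. The libraries share groups, experiments and depth, so no p is given.

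The genes lie apart in the genome (mm10, coordinates of the deposited table). Hdc is at chr2:126593667-126618678 and Ptgs1 at chr2:36230426-36252272, Alox5 at chr6:116410077-116461178 and Hpgds at chr6:65117293-65144908, far from each other on both chromosomes. Tph1 is at chr7:46644641-46672537, Slc18a2 at chr19:59260896-59296012, Srgn at chr10:62493833-62527451, Alox5ap at chr5:149264767-149288153, Ltc4s at chr11:50236469-50238532 and Ptgs2 at chr1:150100031-150108227. Slc18a2, Alox5ap, Ltc4s, Hpgds and Ptgs1 each overlap a gene on the other strand, and the strand setting of the counting was not given in the sources used here. These overlapping genes had between 0 and 166 counts over 12 libraries, against 2597 to 87552 counts in the members they overlap.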

How the data were processed

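The deposited values are whole-number read counts per gene in 12 libraries, made by the authors with Trimmomatic 0.32, STAR 2.5.3a and featureCounts on mm10, per the submitters' processing notes. Per the labels, libraries came from poly(A) RNA with a stranded kit and single reads. How reads of either strand were counted, and with which annotation, is not given in the sources used here. The deposited table also gives another value, the gene-model length, which was used for CPM per kb.

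Counts were tested with R 4.3.3 and the quasi-likelihood test of edgeR 4.0.16 (robust fit, filterByExpr, TMM scaling, 1 mean per group over all 12 libraries, Benjamini-Hochberg over 11994 genes, called at an adjusted p under 0.05). A second fit had the replicate number as a block. CPM used TMM-scaled totals of the tested genes, with a pseudocount of 1 on the log2 scale. No label says that libraries came from separate mice, so p-values cover only the spread among the 12 libraries, which may be technical.

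Replicate numbers come from the labels. Deviations from the group means correlated in 18 of 18 same-number pairs (r from 0.22 to 0.88, median 0.74, against -0.26 for other pairs), and every library correlated best with its own number, so values with the block stand beside the others. The other pairs include libraries of the same group, whose deviations cancel by construction, so their median is partly fixed as negative. Alternatives were RLE, upper-quartile and no scaling, no low-count filter, DESeq2 1.42.0, limma 3.58.1 (voom), smaller fits and leaving out libraries. The script was tested on simulated data. No sample column was left unused.

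The members, lists and tests were chosen with earlier results of these data known. Named were the 10 members, Zkscan17, Nsd1, Nup98 and Hoxa9, up to 4 called genes per pathway list and comparison by smallest adjusted p with the block, and the 2 genes most like each member, clone names left out. Further pathway genes were named after their values were seen. Promoter windows were RefSeq's (GRCm38.p6), matched by symbol for 9 of 10 members.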

Additional observations from a re-analysis of the deposited data

How the results depend on the processing

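No member was called by edgeR with RLE, upper-quartile or no scaling, without the low-count filter, with only the 2 groups compared, or by DESeq2 or limma-voom. The replicate block raised the genes called over the whole table to 33 in place of 1 for NUP98-NSD1 over empty vector, 195 in place of 0 for shNizp1#1 over control shRNA, 26 in place of 1 for shNizp1#2 over control shRNA and 284 in place of 1 for shNizp1#2 over shNizp1#1, with no member among them. DESeq2 called 8, 50, 7 and 73 genes in these comparisons without the block. With the block and no filter on low counts, 3 members were called for NUP98-NSD1 over empty vector (Hdc, Alox5ap and Hpgds) and 2 for shNizp1#2 over shNizp1#1 (Slc18a2 and Alox5ap), and the cause was not tested. With the block and without libraries numbered 2, 1 member was called for NUP98-NSD1 over empty vector (Hdc, edgeR log2 fold change -0.62, adjusted p = 0.0463). Leaving out 1 library gave between 0 and 1 called members: Alox5ap (adjusted p = 0.0354) without empty vector replicate 2, and Slc18a2 for shNizp1#2 over shNizp1#1 (adjusted p = 0.0335) without shNizp1#1 replicate 2, both with the block. No other alternative called a member.

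Signs were followed from the fit without the block, whereas the sizes given for the members above came from the fit with it. Of 40 log2 fold changes of the members, 16 kept their sign under every alternative run and 21 did not, and none of the 21 was called. Slc18a2 for NUP98-NSD1 over empty vector and Ltc4s for shNizp1#2 over shNizp1#1 reached 0.00 without changing sign. Alox5 for shNizp1#2 over shNizp1#1 was 0.00 without the block and -0.01 with it, with -0.09 to 0.14 when 1 library was left out. For shNizp1#1 over control shRNA, Tph1 (-0.01) turned to 0.01 with limma-voom, with the 2 groups alone and with the block (limma-voom and no filter included), to 0.02 with library totals, and to 0.03 and 0.04 with the block and without libraries numbered 1 or 2. Ptgs2 (-0.23) turned to 0.20 with the block (RLE included), 0.33 with DESeq2, 0.18 with no filter, and 1.69 and 0.15 without libraries numbered 2 or 3. With the block and without libraries numbered 1, Hdc was -0.05. Without those numbered 2, Alox5 was -0.04 and Ltc4s -0.02.

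For shNizp1#2 over control shRNA, Alox5 was -0.01 with upper-quartile scaling and -0.03 with the block and without libraries numbered 3. Tph1 was -0.03 and -0.04 without those numbered 1 or 3. Without those numbered 2, Hdc was 0.05, Hpgds 0.05 and Ptgs1 -0.23. For shNizp1#2 over shNizp1#1, Tph1 was -0.06 without libraries numbered 1, and Ptgs1 was -0.01 and Ptgs2 -0.36 without those numbered 2. For NUP98-NSD1 over empty vector, Ptgs2 was -0.02 without those numbered 2.

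Leaving out 1 library, with or without the block, gave these ranges where a sign changed. For NUP98-NSD1 over empty vector they were -0.34 to 0.02 for Tph1, -0.22 to 0.10 for Ltc4s and -1.41 to 2.07 for Ptgs2. For shNizp1#1 over control shRNA they were -0.28 to 0.73 for Hdc, -0.20 to 0.13 for Tph1, -0.13 to 0.11 for Alox5, -0.12 to 0.13 for Ltc4s and -0.93 to 2.00 for Ptgs2. For shNizp1#2 over control shRNA they were -0.61 to 0.40 for Hdc, -0.19 to 0.16 for Tph1, -0.13 to 0.16 for Alox5, -0.04 to 0.23 for Alox5ap, -0.02 to 0.32 for Ltc4s, -0.21 to 0.08 for Hpgds, -0.21 to 0.20 for Ptgs1 and -0.71 to 2.79 for Ptgs2. For shNizp1#2 over shNizp1#1 they were -0.77 to 0.12 for Hdc, -0.18 to 0.16 for Tph1, -0.06 to 0.19 for Srgn and -0.51 to 1.53 for Ptgs2. Of the differences between experiments, that of Alox5ap in experiment 3 (-0.08) was 0.00 with library totals alone and that of Alox5 in experiment 1 (0.21) was 0.14, and no other moved by more than the spread. Depth limits Ptgs2, with 1 to 3 counts in each library numbered 3.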
